A study of Bos taurus with 40 samples.

Results

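The genes described here are 10 genes of de novo fatty acid synthesis (ACACA, FASN, SCD, ACLY, ELOVL6, SREBF1, ME1, ACSS2, THRSP and MLXIPL), picked by gene symbol for their role in the pathway. All 10 were among the 13570 genes listed for 40 RNA-seq samples, and all 10 were among the 13148 genes with at least 1 read that were tested. The samples were pituitary gland, longissimus dorsi muscle, abdominal fat and liver from 5 cows and 5 bulls of Korean cattle, slaughtered at an age over 22 months. The study asked which genes differed in expression between the sexes in these tissues. Each animal gave 1 sample of each tissue, no agent or genetic change was involved, and every sample was bulk tissue. In such samples, fewer cells of a type and less RNA per cell cannot be told apart. Levels are given in CPM, the read count of a gene relative to all reads on genes of its sample, scaled by trimmed mean of M-values (TMM) factors. No gene lengths were used, so that a level may be compared between samples of 1 gene but not between genes.

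De novo synthesis builds fatty acids in the cytosol from acetyl-CoA. ACLY makes cytosolic acetyl-CoA from citrate and ACSS2 makes it from acetate, ACACA carboxylates it to malonyl-CoA, and FASN assembles palmitate with NADPH, part of which ME1 supplies. ELOVL6 lengthens palmitate and SCD adds a double bond, while SREBF1 and MLXIPL encode the transcription factors SREBP1 and ChREBP, and THRSP encodes the lipogenic protein Spot 14. In ruminants, adipose tissue is the main site of the pathway and acetate from the rumen is its main carbon source, whereas the liver makes little fatty acid.

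Between 5173092 and 19165864 reads per sample fell on genes (median 10005607). The defining markers followed the tissue labels: summed adipocyte markers were 6414 to 24083 CPM in fat and at most 799 CPM in any other sample, and summed hepatocyte, muscle fibre and pituitary hormone markers were likewise highest in liver, muscle and pituitary gland. A pair of libraries stood apart. The library labelled liver of bull 3 held XIST, the X-inactivation RNA of female cells, at 1401 CPM, within the cow livers (681 to 2179 CPM), and had no read of the Y-linked genes USP9Y, DDX3Y and ZFY. Counts over animals and the block for animal below paired this library with the other tissues of bull 3 by its label alone. Of the 45 pairs of liver libraries, the library labelled bull 3 was closest to the liver of cow 4, although their counts differed beyond sampling noise (chi-square per degree of freedom of 15.8, against 45.8 for the next pair). The fat library of bull 5 held USP9Y at 1.78 CPM (28.1 to 34.1 CPM in the other bulls). Its XIST level was 1.39 CPM, far below the fat of cows (316 to 981 CPM). Its adipocyte marker sum was the highest, at 24083 CPM against at most 13787 CPM. Where a fold change given here moved by over 1.5 times, or a call changed, without these libraries, both values are given.

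Taken as a sum, the reads of the 10 genes were highest in abdominal fat, where SCD and FASN held most of them (medians of 51.9% and 19.8% of the summed reads). MLXIPL was highest in liver, and the SREBF1 median was higher in muscle. Together, they took 1.52% to 6.5% of the reads on genes in fat (median 3.83%), and between 0.0388% and 0.299% in every sample of the other tissues. The lowest fat sample was thus above the highest sample of liver, muscle and pituitary gland. The median share over 10 animals was 0.105% for muscle, 0.0859% for pituitary gland and 0.0637% for liver.

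**Figure D1:**
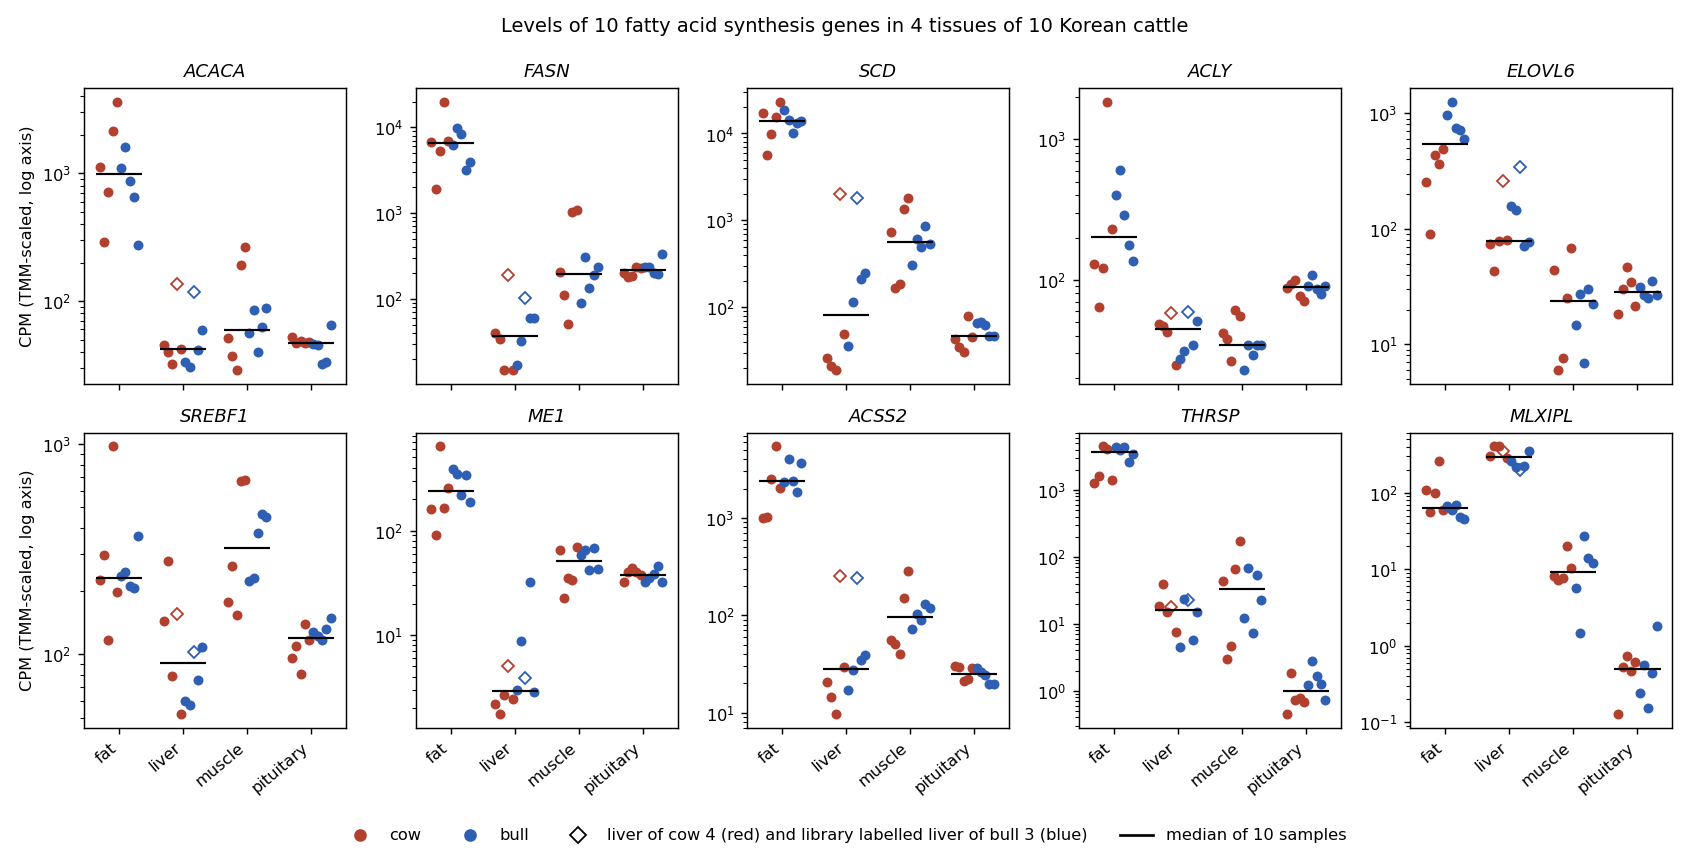
Level of each gene (CPM, log axis) in each sample by tissue, with cows in red, bulls in blue and the median of 10 samples as a bar; open diamonds mark the livers of cow 4 and of the library labelled bull 3. FASN lay between 1918 and 19944 CPM in fat and between 14.7 and 190 CPM in liver, whereas MLXIPL was highest in liver.

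A gene was called in a tissue contrast at an adjusted p under 0.05 and at least a 2-fold difference (edgeR quasi-likelihood test, sex as a covariate, all 40 samples). Against liver, 9 of the 10 genes were called higher in fat and MLXIPL was called lower, where 26.2% of all tested genes were called higher and 21.2% lower. Against muscle, 9 were called higher in fat (23.8% of all genes), and SREBF1 was not called. The share of all genes called lower against muscle was 19.1%. Against pituitary gland, all 10 were called higher in fat (22.7% of all genes, with 24.3% called lower). The median log2 fold change of the 10 genes was 4.66 against liver, 4.05 against muscle and 4.83 against pituitary gland, beside medians of 0.13, 0.13 and -0.02 over all tested genes. The 8 genes ACACA, FASN, SCD, ACLY, ELOVL6, ME1, ACSS2 and THRSP were called higher in fat than in each of the other tissues, a pattern held by 6.93% of all genes, and none was called lower than in each (4.19%). All 10 fat samples were above all 10 samples of liver for 7 genes (10.7% of all genes), of muscle for 9 genes (6.81%) and of pituitary gland for 8 genes (10.5%). No gene had all its fat samples below those of another tissue (10.3%, 8.97% and 14.0% of all genes against liver, muscle and pituitary gland). The counts of calls in fat were the same under each of the 19 alternative settings run for them, the libraries that stood apart left out included. The overlaps changed with single animals: without cow 4, MLXIPL in fat lay wholly below liver, and fat lay wholly above pituitary gland for ACLY without cow 2 and for SREBF1 without cow 3.

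The other contrasts were mixed in direction. Liver against muscle had 2 genes called higher (21.6% of all genes) and 4 called lower (24.8%). Liver against pituitary gland had 5 called higher (21.1%) and 3 called lower (27.1%), and muscle against pituitary gland had 5 called higher (22.6%) and ACLY called lower (25.2%). The samples did not overlap for MLXIPL between liver and muscle (higher in liver, as for 12.3% of all genes, with 14.4% lower). They did not overlap for THRSP and MLXIPL, both higher in liver than in pituitary gland (14.0%), nor for ACLY, lower in liver than in pituitary gland (19.2%). Muscle lay above pituitary gland without overlap for SCD, SREBF1, ACSS2 and THRSP (13.9%) and below it for ACLY (16.8%). With scaling by library sizes alone, these ranges overlapped for SREBF1, ACSS2 and THRSP, as did those of THRSP in liver and pituitary gland. SREBF1 in muscle against pituitary gland was then not called (0.63, adjusted p = 0.0577, edgeR).

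**Figure D2:**
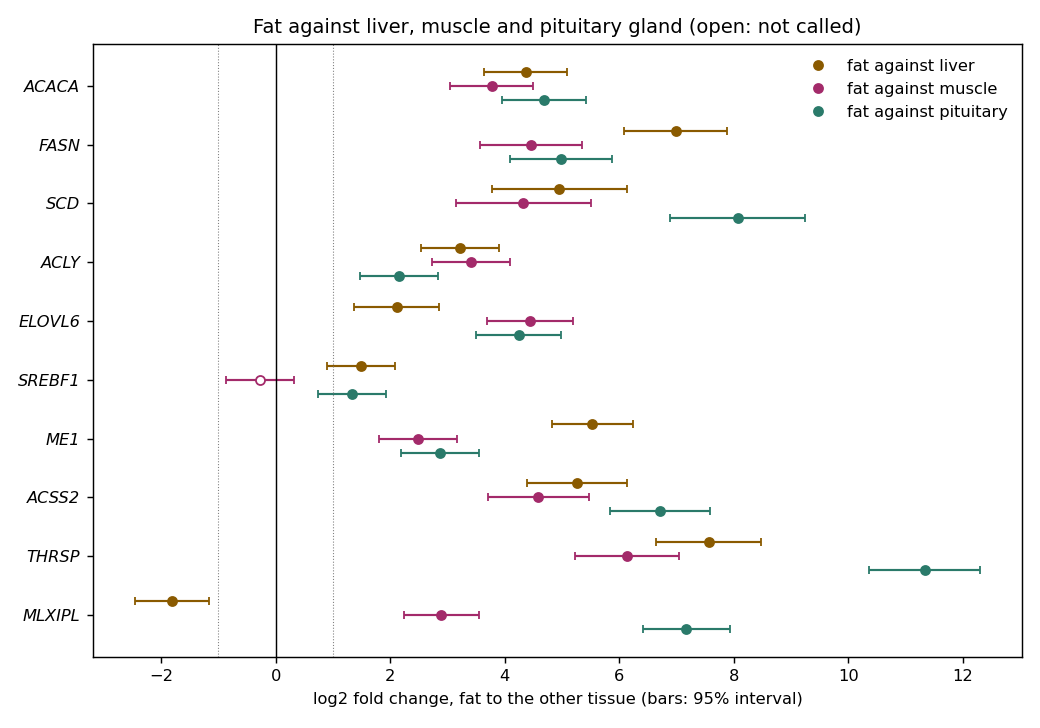
Log2 fold change of fat against liver, muscle and pituitary gland for each gene, with bars for the 95% interval and open points where the contrast was not called; dotted lines mark a 2-fold difference. The points run from -1.81 for MLXIPL against liver to 11.3 for THRSP against pituitary gland.

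Of the enzymes that supply acetyl-CoA, ACSS2 had larger fold changes than ACLY in each of the fat contrasts. ACSS2 lay between 995 and 5465 CPM in fat (median 2379), between 9.61 and 256 CPM in liver (median 28.3), between 39.9 and 284 CPM in muscle (median 96.5) and between 19.6 and 30.2 CPM in pituitary gland (median 25.2). Every fat sample was above every sample of the other tissues. Its log2 fold change of fat was 5.26 ± 0.447 (SE) against liver, 4.59 ± 0.447 against muscle and 6.71 ± 0.448 against pituitary gland (adjusted p = 1.65e-11, 3.98e-10 and 1.12e-13). Without the livers of cow 4 and of the library labelled bull 3, the value against liver was 6.78 (adjusted p = 2e-17). ACLY had medians of 204 CPM in fat, 45.0 CPM in liver, 34.5 CPM in muscle and 89.0 CPM in pituitary gland. The fat range of ACLY, 64.5 to 1855 CPM, overlapped that of pituitary gland, 70.8 to 108 CPM, and 9 of 10 animals had more ACLY in fat than in pituitary gland. The exception was cow 2, with 64.5 CPM in fat and 94.1 CPM in pituitary gland. Its log2 fold change of fat was 3.22 ± 0.348 against liver, 3.41 ± 0.349 against muscle and 2.15 ± 0.347 against pituitary gland, and 2.52, 2.72 and 1.38 without cow 4. The proportion of both genes is given as a description. The ratio of ACSS2 reads to ACLY reads had a median of 8.52 in fat (2.95 to 26.7), 0.822 in liver (0.226 to 4.37), 3.01 in muscle (1.33 to 5.13) and 0.285 in pituitary gland (0.213 to 0.409). All ratios in pituitary gland were below all those in fat and muscle, and the liver range spanned both sides.

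ME1, the cytosolic malic enzyme, was lowest in liver. Its levels were 90.7 to 644 CPM in fat (median 237), 1.74 to 32.2 CPM in liver (median 2.92), 22.4 to 70.2 CPM in muscle (median 50.7) and 32.1 to 46.2 CPM in pituitary gland (median 37.7). In all 10 animals, ME1 was lower in liver than in each of the other 3 tissues. The log2 fold change of fat against liver was 5.53 ± 0.358 (adjusted p = 4.59e-15), and that of liver against pituitary gland was -2.66 ± 0.359 (adjusted p = 6.33e-08). Without bull 4, whose liver was the highest, they were 6.27 and -3.38. Muscle and pituitary gland were not called (0.39 ± 0.349, 95% interval -0.29 to 1.08).

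The synthesis enzymes ACACA and FASN were both far higher in fat. ACACA lay between 273 and 3625 CPM in fat (median 984), and no sample of liver (30.6 to 137), muscle (28.8 to 267) or pituitary gland (32 to 65.0) reached the lowest fat sample. FASN lay between 1918 and 19944 CPM in fat (median 6504), 14.7 and 190 CPM in liver (median 36.8), 50.4 and 1084 CPM in muscle (median 197) and 179 and 331 CPM in pituitary gland (median 215). The enzymes differed in the order of the remaining tissues. FASN was lower in liver than in muscle and pituitary gland in all 10 animals, with log2 fold changes of -2.52 ± 0.457 and -2.01 ± 0.456 (adjusted p = 1.67e-05 and 0.00028), and -3.25 and -2.69 without the livers of cow 4 and of the library labelled bull 3. ACACA was not called between liver and muscle (-0.60, 95% interval -1.33 to 0.13), liver and pituitary gland (0.32, -0.41 to 1.05) or muscle and pituitary gland (0.92, 0.19 to 1.65). FASN and ME1 were the members called lower in liver than in each other tissue, as were 9.26% of all genes.

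SCD, the stearoyl-CoA desaturase, and ELOVL6 act on the palmitate that FASN releases. SCD lay between 5703 and 23180 CPM in fat (median 14035), between 19.0 and 2017 CPM in liver (median 81.8), between 167 and 1801 CPM in muscle (median 568) and between 30.7 and 79.1 CPM in pituitary gland (median 46.9). The liver range was the widest of any gene in any tissue, with a ratio of highest to lowest of 106. In muscle, every SCD level was above every level in pituitary gland (log2 fold change 3.74 ± 0.603, adjusted p = 5.43e-06). SCD in liver against muscle was not called (-0.62 ± 0.602, adjusted p = 0.38). With animal as a block the same contrast was -1.64 (adjusted p = 0.0174), and without the livers of cow 4 and of the library labelled bull 3 it was -3.13 (adjusted p = 8.01e-07). SCD in fat against liver was 4.95 ± 0.602, and 7.42 without those livers. SCD in liver against pituitary gland was called (3.12 ± 0.603), but it was 0.67 (adjusted p = 0.189) without those livers. ACSS2 in liver against muscle moved likewise. It was not called (-0.67 ± 0.448, adjusted p = 0.198), but it was -1.20 (adjusted p = 0.0116) with animal as a block and -2.20 (adjusted p = 4.46e-07) without those livers, as ACACA was -1.10 (adjusted p = 0.0116). ELOVL6 had medians of 547 CPM in fat, 78.7 CPM in liver, 23.8 CPM in muscle and 28.3 CPM in pituitary gland. It was higher in liver than in muscle and in pituitary gland in all 10 animals (log2 fold change 2.33 ± 0.380 and 2.13 ± 0.378). Muscle and pituitary gland were not called for ELOVL6 (-0.20, 95% interval -0.95 to 0.55), although ELOVL6 was called lower in muscle (-1.16, adjusted p = 0.00558) when scaling used library sizes alone. The ratio of SCD reads to ELOVL6 reads had a median of 22.9 in fat and 25.3 in muscle, with minima of 11.3 and 17.0, against 0.700 in liver and 2.13 in pituitary gland. In liver, this ratio ran from 0.226 to 7.79, and in pituitary gland it was at most 2.55.

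The regulators did not share the pattern of the enzymes. The largest contrast of SREBF1 between tissues was smaller than that of any other of the 10 genes. It lay between 118 and 980 CPM in fat (median 231), 51.8 and 277 CPM in liver (median 90.6), 154 and 673 CPM in muscle (median 321) and 80.6 and 150 CPM in pituitary gland (median 120). SREBF1 was not called between fat and muscle (-0.28, 95% interval -0.87 to 0.32), where 5 of 10 animals had more in fat, and the sign turned (0.55) when scaling used library sizes alone. It was lower in liver than in fat (log2 fold change of fat 1.49 ± 0.303, adjusted p = 5.61e-05) and in muscle (-1.76 ± 0.303, adjusted p = 4.1e-06), but not called against pituitary gland (-0.15, 95% interval -0.75 to 0.44). The ratio of SREBF1 reads to SREBF2 reads, SREBF2 being the relative that acts mainly on cholesterol genes, had medians of 0.416 in liver, 1.08 in pituitary gland, 2.65 in fat and 3.39 in muscle. In RefSeq on ARS-UCD2.0, SREBF1 overlaps RAI1 and ACACA overlaps C19H17orf78, and reads of overlapping genes cannot be told apart without strand.

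MLXIPL was the one gene that was highest in liver. It lay between 197 and 409 CPM in liver (median 295), 45.6 and 261 CPM in fat (median 63.0), 1.47 and 27.5 CPM in muscle (median 9.27) and 0.126 and 1.83 CPM in pituitary gland (median 0.499). In all 10 animals, liver was above fat, although the ranges overlapped through the fat of cow 4 (261 CPM). The log2 fold change of fat against liver was -1.81 ± 0.327 (adjusted p = 1.06e-05), and 10.1% of all genes were likewise called higher in liver than in each other tissue. THRSP was the gene with the largest range. It lay between 1290 and 4545 CPM in fat (median 3661), 4.43 and 39.4 CPM in liver (median 16.3), 3.03 and 171 CPM in muscle (median 33.1) and 0.442 and 2.77 CPM in pituitary gland (median 0.996). Its log2 fold change of fat was 7.56 ± 0.466 against liver, 6.14 ± 0.463 against muscle (6.74 without cow 5) and 11.3 ± 0.495 against pituitary gland. The counts behind the pituitary values were low, 7 to 55 reads of THRSP and 2 to 28 reads of MLXIPL per library. The THRSP median in pituitary gland was 0.0272% of that in fat, and the MLXIPL median was 0.169% of that in liver. Prolactin (PRL), a pituitary hormone, stood at 0.0316% to 0.0469% of its pituitary median in the other tissues. In pituitary gland, the adipocyte marker FABP4 stood at 0.0214% of its fat median. The hepatocyte marker ALB stood there at 0.0133% of its liver median, and the muscle fibre marker ACTA1 at 0.00848% of its muscle median. The part of such RNA in the pituitary values of THRSP and MLXIPL was not tested.

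SCD, ACSS2, THRSP and MLXIPL were called lower in pituitary gland than in each other tissue (5.92% of all genes). Without the livers of cow 4 and of the library labelled bull 3, this held for THRSP and MLXIPL, since ACSS2 in liver against pituitary gland then was -0.08 in place of 1.46 ± 0.449 (adjusted p = 0.0052). With animal as a block, ACSS2 in that contrast was 0.65 (adjusted p = 0.166). Pituitary gland was also the tissue in which each gene other than THRSP and MLXIPL varied least between animals. MLXIPL, at low counts, varied most there (coefficient of variation 85.3%). The variation of all genes was not compared between tissues. For the 8 genes other than THRSP and MLXIPL, the coefficient of variation over 10 animals was 12.3% (ACLY) to 29.8% (SCD) in pituitary gland, and 34.9% (SCD) to 134% (ACLY) in fat. In liver, it was 29.5% (ACLY) to 170% (SCD), and in muscle 32.2% (ACLY) to 112% (FASN). The value of ACLY in fat rested on cow 4. Without that animal it was 71.9%, below that of ACACA (89.7%).

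The neighbouring genes of the pathway were taken as a list of 37 genes, of which 33 were listed in the tables. Fat was called higher for 15 of 33 against liver, 16 against muscle and 20 against pituitary gland, and called lower for 10, 9 and 4. Of 8 listed suppliers of acetyl groups and NADPH, 7 were higher in fat against liver, 5 against muscle and 7 against pituitary gland. The list of 8 included ME2, a mitochondrial enzyme. Of all genes, 26.2%, 23.8% and 22.7% were called higher in these contrasts, and 21.2%, 19.1% and 24.3% lower. SLC25A1 (the citrate carrier), PGD, IDH1, SCAP, GPAM, AGPAT2 and DGAT2 were among the partners called higher in fat than in each other tissue. DGAT2, which makes triacylglycerol, had the largest difference of the list against pituitary gland (9.45 ± 0.338), followed by the esterification enzymes AGPAT2 (6.07 ± 0.289) and GPAM (5.96 ± 0.314). DGAT2 also differed most among the partners called higher against liver (6.71 ± 0.333) and muscle (5.03 ± 0.331).

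Other partners were lower in fat. FADS2, the delta-6 desaturase of polyunsaturated fatty acids, had a median of 2.97 CPM in fat and 129 CPM in liver (log2 fold change -7.21 ± 0.590, adjusted p = 3.92e-11), and the fold change was -4.91 (adjusted p = 3.56e-12) without the livers of cow 4 and of the library labelled bull 3. ACACB, the carboxylase isoform at the mitochondrial membrane whose malonyl-CoA restrains fatty acid oxidation, had a median of 1.74 CPM in fat and 1047 CPM in muscle (-9.33 ± 0.385, adjusted p = 3.28e-19). ACACB was also called lower in liver than in muscle (-7.28 ± 0.372) and higher in muscle than in pituitary gland (9.66 ± 0.388). ACACA was not called in those contrasts with all samples. The ratio of ACACA reads to ACACB reads had a median of 645 in fat, 45.6 in pituitary gland, 6.72 in liver and 0.0597 in muscle, and the ranges of fat and muscle did not overlap any other. MLXIP, the relative of MLXIPL called MondoA, was 25.2 CPM in fat and 563 CPM in muscle (-4.53 ± 0.270, adjusted p = 2.25e-16). ACACB, ME2, MLXIP and MID1IP1 were called higher in muscle than in each other tissue, whereas none of the 10 genes was (8.13% of all genes), nor was any called lower in muscle than in each other tissue (4.74%).

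Animals differed within a tissue, and the differences were shared by several of the genes. In liver, cow 4 and the library labelled bull 3 stood above the other 8 livers for 6 of the 10 genes: ACACA, FASN, SCD, ACLY, ELOVL6 and ACSS2. Of 9930 genes with a mean of at least 1 CPM in liver, 6.94% had both libraries above the other 8. SCD was at 2017 and 1826 CPM in these livers, and at 19.0 to 248 CPM in the others. ACSS2 was at 256 and 241 CPM, against 9.61 to 39.1 CPM, and ACACA at 137 and 118 CPM, against 30.6 to 59.1 CPM. The mean of both libraries was 45.0 times the median of the other 8 for SCD, 10.4 times for ACSS2 and 1.53 times for ACLY. SREBF1 in these livers, at 156 and 102 CPM, lay within the range of the other 8 (51.8 to 277 CPM). MLXIPL was at 353 CPM in cow 4 and 197 CPM in the other library, against 216 to 409 CPM. None of the 10 genes was below the other 8 livers in both libraries (7.72% of the 9930 genes). Of the 33 partners, 8 were above the other 8 livers in both. FADS2 was at 2851 and 2526 CPM, against 8.87 to 369 CPM. The library labelled bull 3 is 1 of those that stood apart, and these comparisons were made after the levels had been seen.

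**Figure D3:**
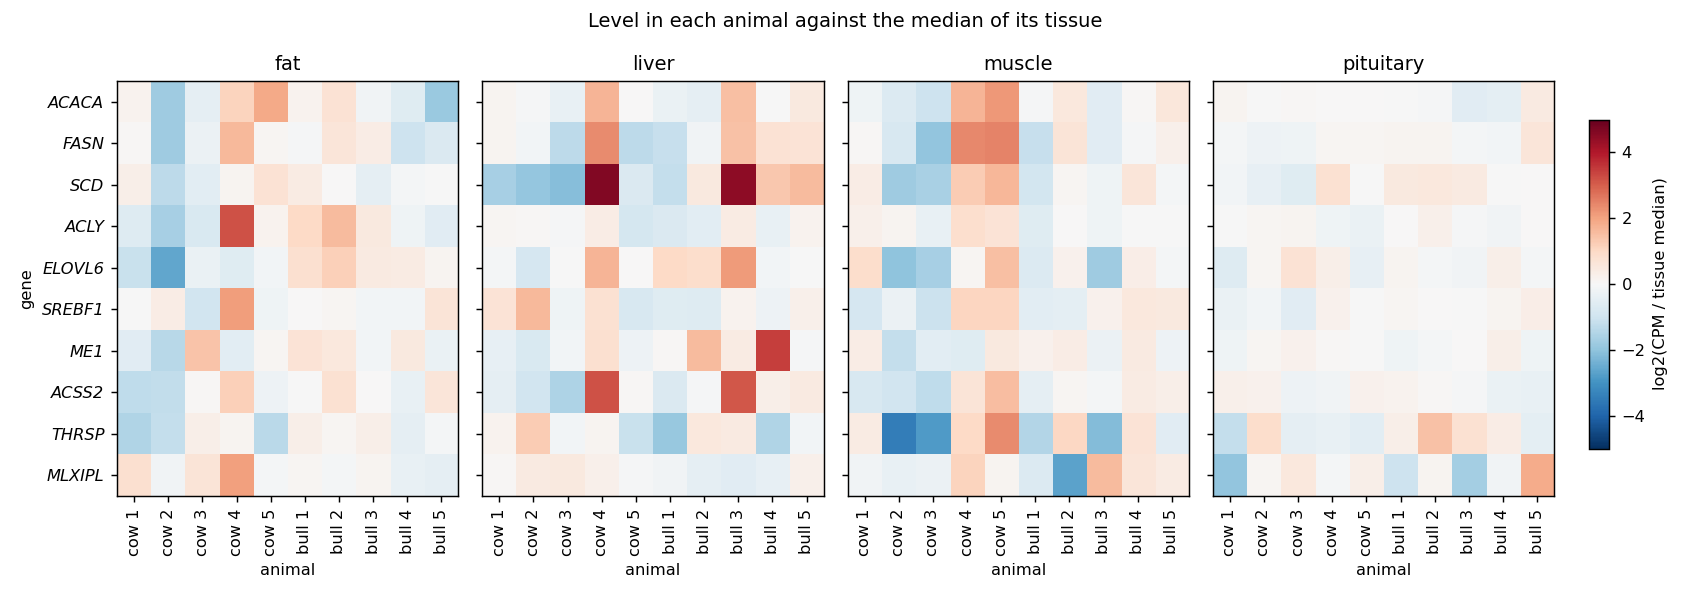
Log2 of the level of each gene in each animal relative to the median of the 10 samples of its tissue. The livers of cow 4 and bull 3 are raised for SCD and ACSS2, the fat of cow 4 for ACLY, and the muscle of cows 4 and 5 for FASN, and pituitary gland is the most even panel for the 8 genes other than THRSP and MLXIPL.

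In fat, cow 4 was the highest of the 10 animals for FASN, ACLY, SREBF1, ACSS2 and MLXIPL, and it was the highest for 14.1% of 10024 genes with a mean of at least 1 CPM there. Its ACLY level was 1855 CPM against 64.5 to 610 CPM in the other 9 animals, 10.6 times their median. FASN was at 19944 CPM against 1918 to 9788 CPM, and SREBF1 at 980 CPM against 118 to 365 CPM. SCD (15329 CPM), ELOVL6 (363 CPM), ME1 (166 CPM) and THRSP (4040 CPM) of the same sample lay within the range of the others. In muscle, cow 5 was the highest for 8 of the 10 genes, and it was the highest for 9.74% of 9908 genes. FASN in muscle was at 1035 CPM in cow 4 and 1084 CPM in cow 5, and at 50.4 to 310 CPM in the other 8. SREBF1 was at 671 and 673 CPM in the same animals, and at 154 to 463 CPM in the others. Cow 4 was the highest in muscle for 19.2% of the 9908 genes. By library sizes alone, SREBF1 in muscle was at 348 CPM in cow 4, below bull 4 (363 CPM). FASN in cows 4 and 5 stayed above the other 8 by that scaling.

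Across the 10 animals of a tissue, levels of the other 9 genes were correlated with FASN on the log2(CPM + 1) scale (36 relations, permutation tests, Benjamini-Hochberg adjusted). Muscle had the most relations past the threshold, 7 of 9. Of 8319 genes with a mean of at least 5 CPM in muscle, 3.94% had an r with FASN at least as far from 0 as the lowest of those 7. The closest was ACACA, with r = 0.953 (permutation p = 0.0001, adjusted p = 0.0036) and rho = 0.891 (permutation p = 0.00113, adjusted p = 0.031), and r was 0.838 without cows 4 and 5. SCD had r = 0.896 (adjusted p = 0.00504, permutation) and rho = 0.855 (adjusted p = 0.0324), with r = 0.792 without those cows. ACLY (r = 0.894), ACSS2 (0.862), THRSP (0.849), SREBF1 (0.781) and ELOVL6 (0.737) were the others past the threshold by r, and rho missed it for SREBF1 and ELOVL6 (adjusted permutation p = 0.0693 and 0.0673). Without cows 4 and 5, r was 0.459 for SREBF1, and between 0.658 and 0.805 for the remaining 4. With scaling by library sizes alone, 4 of the 9 relations passed in muscle. ME1 and MLXIPL were at r = 0.267 and 0.168.

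In fat, ACLY (r = 0.886, adjusted permutation p = 0.00504, rho = 0.794, adjusted permutation p = 0.0351) and ACACA (r = 0.760, adjusted permutation p = 0.0369, rho = 0.830, adjusted permutation p = 0.0336) passed. Without cows 2 and 4, r was 0.640 and 0.641. Of 8439 genes in fat, 0.853% had an r at least as far from 0 as that of ACACA. Over the 10 livers, SCD (r = 0.876), ACACA (0.867), ACSS2 (0.861) and ACLY (0.737) passed (adjusted permutation p = 0.00504, 0.00504, 0.00568 and 0.0459). These livers fell into clusters, with cow 4 and the library labelled bull 3 apart from the rest. The relation was thus also taken over the other 8. Within those 8 livers, r was 0.665 for SCD, 0.605 for ACACA, 0.609 for ACSS2 and 0.538 for ACLY, and none passed (adjusted permutation p = 0.183, 0.225, 0.214 and 0.29). In pituitary gland, no relation passed by r (largest 0.687 for SREBF1, adjusted permutation p = 0.0797, rho = 0.697), whereas by rho SCD (0.745, adjusted permutation p = 0.0478) and ME1 (-0.782, adjusted permutation p = 0.0355) did.

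The genes most like FASN over the 10 fat samples, among 8439 genes with a mean of at least 5 CPM, were MTA1 (r = 0.889), ACLY (0.886), OSBP (0.880), DBT (0.877) and KIF1C (0.860). ACACA ranked 48, MLXIPL 97, ACSS2 211, SCD 537, SREBF1 1050, ELOVL6 1207, THRSP 1472 and ME1 2908. Without the fat of bull 5, the closest of 8454 genes were BCL9L (r = 0.929), GGA1 (0.912), MTA1 (0.906), DBT (0.904) and OSBP (0.896). ACLY then ranked 11, ACSS2 72, ACACA 73, MLXIPL 188, SCD 508, SREBF1 696, ELOVL6 992, THRSP 1169 and ME1 3188. Over the 10 livers, among 8370 genes, the closest were DHCR7, B3GNT9, FDFT1, NSDHL and C10H14orf1. DHCR7, FDFT1 and NSDHL encode enzymes of cholesterol synthesis, and all 5 were above the other 8 livers in both cow 4 and the library labelled bull 3. Without those libraries, the list held ZBTB5, SON, ITPR2, AGPAT3 and AKAP10 in their place. SCD, ACACA and ACSS2 ranked 12, 15 and 20 over the 10 livers, and 391, 625 and 606 without those libraries. These likenesses are descriptions over 10, 9 or 8 samples that share an assay and a scaling.

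Muscle contains fat cells between its fibres, and the levels of most of the genes in muscle moved with adipocyte markers. The markers were PLIN1, LEP, CIDEC, FABP4 and LIPE, 5 of a list of 6, and each was detected in all 10 muscle samples. Their summed level was 42.1 CPM in cow 3, 42.6 CPM in cow 2 and 90.8 to 279 CPM in the next 7 animals, and it reached 799 CPM in cow 5. Correlations used the mean of the log2(CPM + 1) levels of the 5 markers. By r, 7 of the 10 genes passed the threshold over 20 relations, and 0.986% of 8315 genes in muscle had an r at least as far from 0 as the lowest of those 7. SCD had r = 0.919 (adjusted permutation p = 0.002) and rho = 0.952 (adjusted permutation p = 0.0022), and THRSP had r = 0.910 (adjusted permutation p = 0.0014) and rho = 0.867 (adjusted permutation p = 0.0158). Without cows 3 and 5, the farthest from the median marker level, r was 0.873 and 0.867. ELOVL6 (r = 0.895, 0.833 without those cows), ACSS2 (0.871, 0.627), ACACA (0.786, 0.444), FASN (0.771, 0.452) and ME1 (0.740, 0.756) were the others. Of these, rho missed the threshold for ACACA and ME1 (adjusted permutation p = 0.0518 for both). With scaling by library sizes alone, ME1 did not pass by r (0.649, adjusted permutation p = 0.0948). SREBF1 (r = 0.644), ACLY (0.571) and MLXIPL (0.150) did not pass. The part of fat cells in the muscle levels was not tested.

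**Figure D4:**
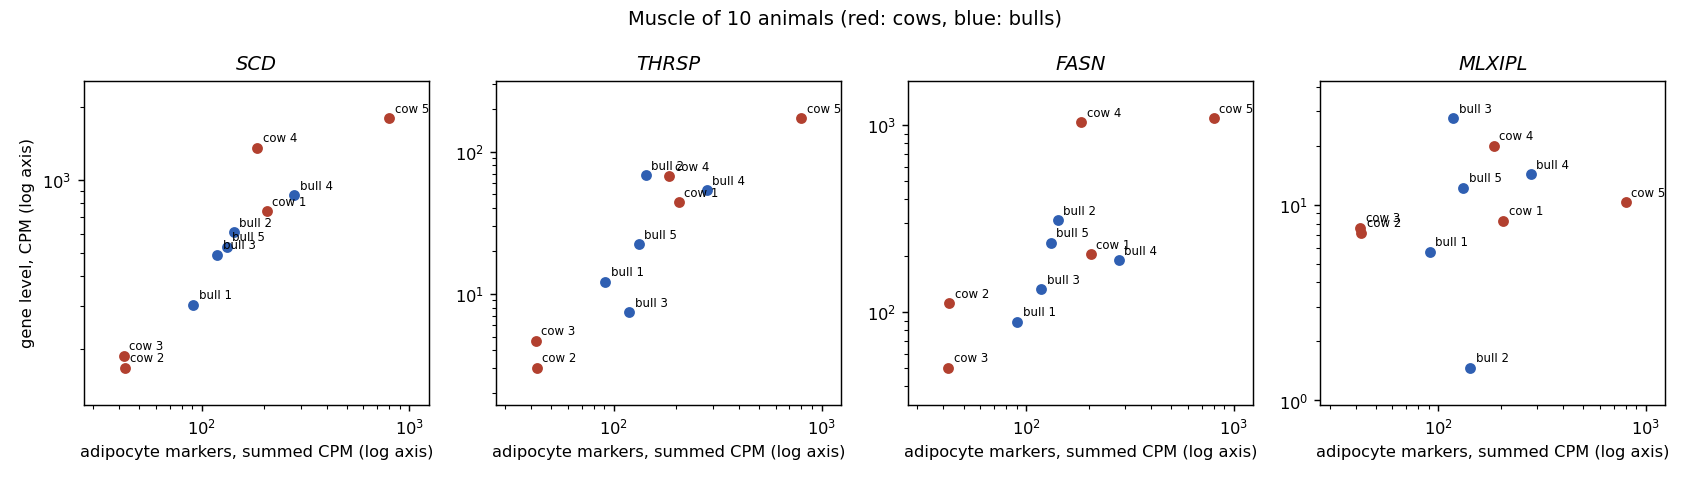
Level of SCD, THRSP, FASN and MLXIPL (CPM, log axis) against the summed level of 5 adipocyte markers (CPM, log axis) in the muscle of 5 cows (red) and 5 bulls (blue). SCD and THRSP rose with the markers from cows 2 and 3 to cow 5 (r = 0.919 and 0.910 with the mean log2 marker level), whereas r was 0.150 for MLXIPL.

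In fat, where the markers were 6414 to 24083 CPM, ACACA passed, with r = -0.767 (adjusted permutation p = 0.0282) and rho = -0.782 (adjusted permutation p = 0.0363), and 16.4% of 8435 genes in fat had an r at least as far from 0. It did not pass without the fat of bull 5 (r = -0.663, adjusted permutation p = 0.105), and without bull 5 and cow 5 r was -0.385. The other 9 genes had r between -0.349 and 0.498 in fat.

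With the labels as given, none of the 10 genes was called as sexually dimorphic. The sexes were compared within each tissue by a likelihood ratio test with sex as the only term, over all tissues with tissue as a second term, and by the interaction of both. At an adjusted p under 0.05 (edgeR), 0 of the 10 genes were called in any of these tests, and 0 by the quasi-likelihood test and by DESeq2, which gave no adjusted p for SCD and ACSS2 in liver. Of all tested genes, 0.114% were called in fat, 0.175% in liver, 0.517% in muscle, 0.745% in pituitary gland, 1.69% over all tissues and 0.335% for the interaction. The liver, all-tissue and interaction tests counted the library labelled bull 3 as male, although its XIST level was that of a cow. Without it, 35 of all genes were called higher and 26 lower in bulls in liver, in place of 9 and 14. Without it and the liver of cow 4, SCD and ME1 were called in liver. At an unadjusted p under 0.05, the counts of the 10 genes were 2 in fat, 2 in liver, 1 in muscle, 0 in pituitary gland, 1 over all tissues and 2 for the interaction. The shares of all genes were 6.88%, 7.45%, 11.0%, 9.27%, 16.7% and 8.58%.

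**Figure D5:**
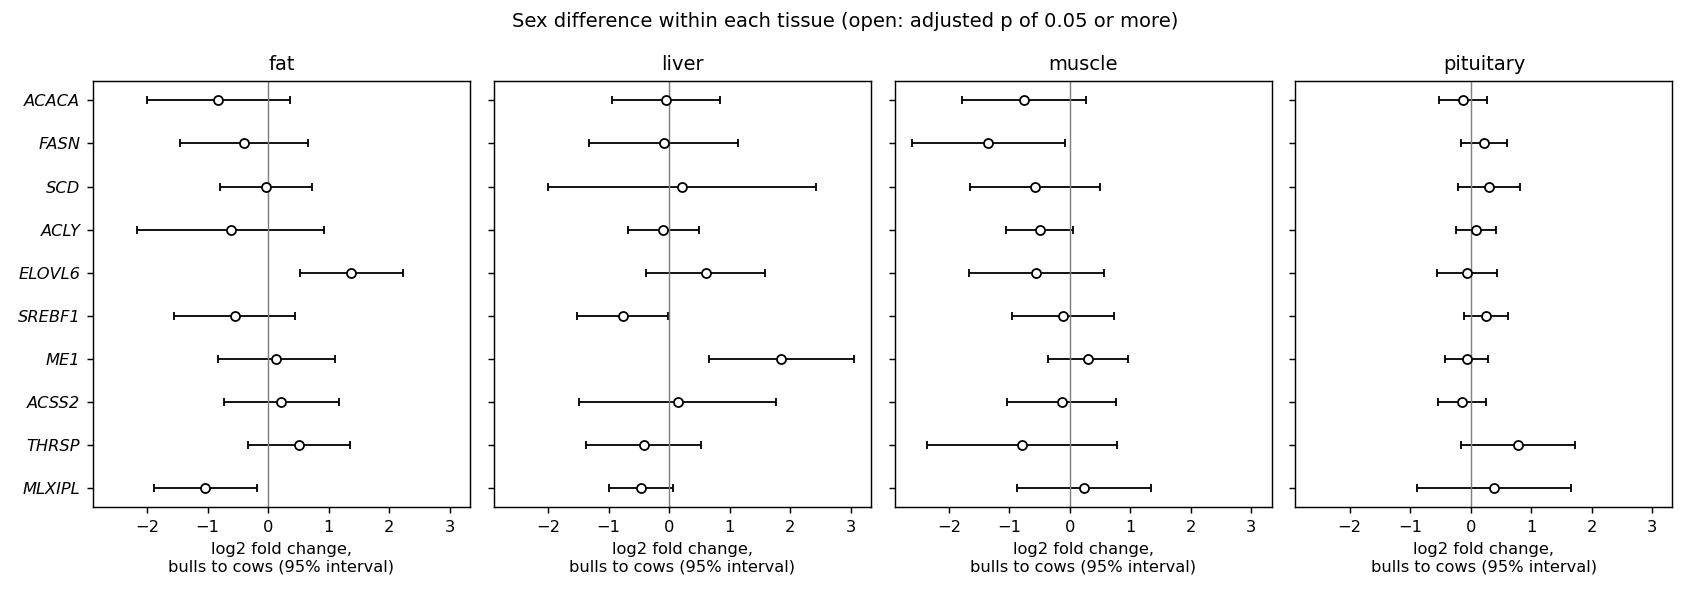
Log2 fold change of bulls to cows for each gene within each tissue, with bars for the 95% interval; all points are open, since no adjusted p was under 0.05. The intervals are narrowest in pituitary gland and widest for SCD in liver (-2.0 to 2.42).

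ELOVL6 in fat was the gene whose sexes did not overlap. It was at 253, 89.6, 433, 363 and 492 CPM in cows 1 to 5, and at 964, 1259, 740, 723 and 602 CPM in bulls 1 to 5. Every bull was above every cow, and the sexes were apart in either direction for 1.29% of all genes in fat. In liver, muscle and pituitary gland, the sexes overlapped for all 10 genes, and they were apart for 0.548%, 1.65% and 1.34% of all genes. The log2 fold change of bulls to cows was 1.37 ± 0.433 (95% interval 0.53 to 2.22), with an unadjusted p of 0.00181 and an adjusted p of 0.335 (edgeR). Without the fat of bull 5, it was 1.48 (adjusted p = 0.208, edgeR). MLXIPL in fat was lower in bulls (-1.04 ± 0.433, adjusted p = 0.615), at 45.6 to 69.4 CPM in bulls and 55.8 to 261 CPM in cows, with the sexes overlapping.

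In liver, ME1 was at 2.18, 1.74, 2.69, 5.05 and 2.46 CPM in cows 1 to 5, and at 3.0, 8.77, 3.87, 32.2 and 2.83 CPM in bulls 1 to 5. The log2 fold change was 1.85 ± 0.611 (adjusted p = 0.253), and the high value was that of bull 4. SCD in liver was at 26.0, 21.2, 19.0, 2017 and 49.8 CPM in cows 1 to 5, and at 35.6, 114, 1826, 210 and 248 CPM in the libraries labelled bulls 1 to 5. Its log2 fold change was 0.21 ± 1.13 (adjusted p = 1), and it turned with the livers of cow 4 and bull 3. It was -1.49 without the library labelled bull 3, 4.11 (adjusted p = 0.0028) without cow 4, and 2.37 (adjusted p = 0.00233) without both. Without both, ME1 was also called (2.36, adjusted p = 0.0428). ACSS2 in liver moved likewise, from 0.14 ± 0.832 to -1.16 without the library labelled bull 3. SREBF1 in liver was lower in bulls (-0.77 ± 0.383, unadjusted p = 0.0466, adjusted p = 0.661, edgeR).

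In muscle, FASN was at 203, 112, 50.4, 1035 and 1084 CPM in cows 1 to 5, and at 88.9, 310, 132, 190 and 234 CPM in bulls 1 to 5. The bulls lay within the range of the cows, and the log2 fold change was -1.35 ± 0.645 (adjusted p = 0.42). In pituitary gland, no gene had an unadjusted p under 0.05, and for the 8 genes other than THRSP and MLXIPL the 95% intervals lay between -0.56 and 0.81. Differences above 2-fold were thus outside the intervals of those 8 genes. In the other tissues, the intervals of most genes reached past 2-fold in at least 1 direction.

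Over all tissues, ME1 had the lowest p (log2 fold change 0.52 ± 0.248, unadjusted p = 0.041, adjusted p = 0.278, edgeR). In the interaction test, ME1 and ELOVL6 had unadjusted p of 0.0168 and 0.0371 (adjusted p = 0.377 and 0.508, edgeR). Without cow 4, SCD was called for the interaction (adjusted p = 0.00251, edgeR), and without the livers of cow 4 and of the library labelled bull 3 it was not (adjusted p = 0.0653, edgeR).

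Among the 33 partners, ME2, the mitochondrial relative of ME1, was called for sex in muscle. It was at 46.6, 40.04, 56.7, 69.2 and 64.4 CPM in cows 1 to 5, and at 140, 218, 118, 145 and 137 CPM in bulls 1 to 5. Every bull was above every cow. The log2 fold change of bulls to cows was 1.46 ± 0.266 (adjusted p = 0.000128, and 0.0332 by the quasi-likelihood test, edgeR). The paper picked the genes of its qRT-PCR, ME2 included, from those that its RNA-seq tests had detected as sexually dimorphic. By qRT-PCR, in fewer cattle per sex than its RNA-seq, it reported no significant sex difference of ME2 in cattle, muscle included. It reported none in rat. In pituitary gland, ME2 was at 34.1 to 60.2 CPM in cows and 31.6 to 38.2 CPM in bulls. The sex difference of ME2 differed between tissues by the interaction test (adjusted p = 0.0042, edgeR), although not by the quasi-likelihood test (adjusted p = 0.0705) nor without cow 1 (0.0611) or bull 2 (0.0533).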

How the data were processed

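RNA-seq counts of 40 samples were used. Per the labels and the study's methods, the authors trimmed reads with Trimmomatic, aligned read pairs of poly-A selected RNA to UCSC bosTau7 with TopHat2 and Bowtie2, and deposited raw HTSeq counts per gene symbol. The kit does not mark strand, and the counting mode was not given in the sources used here. A row without a gene name (0.114% to 2.69% of reads) was left out. Groups came from the labelled sex and tissue, and animals from the sample titles.

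CPM used TMM factors (0.518 to 1.71, edgeR 4.0.16, R 4.3.3). Tissue contrasts used the quasi-likelihood test (sex + tissue) and sex the likelihood ratio test, as in the study, over 13148 genes with at least 1 read, with Benjamini-Hochberg adjustment. Fold changes used a prior count of 0.125, ± is the SE, and read ratios used a pseudocount of 0.5. Correlations used 100000 resamples and a pseudocount of 1. The scripts were tested on simulated data. Alternatives covered scaling, filter, test (DESeq2 1.42.0), a block for animal (limma 3.58.1 for sex over all tissues) and left-out samples. Tissues are paired by animal by design, and deviations of the same animal correlated with a median r of 0.0285 to 0.324 per pair of tissues. Cows and bulls are not paired.

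All 10 genes were named throughout. Partners were named if among the 3 largest called changes of a fat contrast or called for sex, and for likeness the 5 highest r with FASN were named. Other partners, and the comparison of the livers of cow 4 and bull 3 with the rest, were chosen after values were seen. The genes and lists were chosen with earlier results of these data known. Precision is limited by 5 animals per sex and by low counts (2 reads at the least). The partners FADS1, INSIG2, MLX and ACSL4 and the markers ADIPOQ and APOB were not analysed here, and 1 partner that the naming rule selects is not reported here.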

Additional observations from a re-analysis of the deposited data

Results flagged for a closer look

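In 17 of 80 groups of 5 samples (each gene by tissue and sex), 1 sample lay apart from the other 4 by Dixon's test at the 95% level, all of them high. For normally distributed values, chance flags about 1 in 20 groups, on either side. The test used CPM without a log, so that this rate need not apply. Over all genes with a mean of at least 1 CPM in the tissue, the highest sample lay apart in 7.89% of 80583 groups. Of the 17 samples that lay apart, 11 were samples of cow 4. In liver they were SCD (2017 CPM, next cow 49.8), ACSS2 (256, next 29.4), ELOVL6 (259, next 79.4), FASN (190, next 40.1), ACACA (137, next 45.7) and ME1 (5.05, next 2.69). In fat they were FASN (19944 CPM, next 6912), ACLY (1855, next 231), SREBF1 (980, next 296) and MLXIPL (261, next 110), and in muscle MLXIPL (19.9, next 10.3).

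The library labelled liver of bull 3, whose XIST level was that of a cow, lay apart from the other bull livers for SCD (1826 CPM, next 248) and ACSS2 (241 CPM, next 39.1). In bull 4, ME1 in liver was at 32.2 CPM (next 8.77). In bull 5, SREBF1 in fat was at 365 CPM (next 246), in the library with the lowest USP9Y level of the bull fat samples, and MLXIPL in pituitary gland was at 1.83 CPM (next 0.555). In cow 2, THRSP in pituitary gland was at 1.83 CPM (next 0.780).

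The sex difference of ME2 differed between tissues by the interaction test (adjusted p = 0.0042, edgeR): bulls were above cows in muscle, and in pituitary gland the cows reached the higher levels. By the quasi-likelihood test it did not (adjusted p = 0.0705, edgeR). The paper picked ME2 from its RNA-seq detections, and its qRT-PCR, in fewer cattle, found no significant sex difference of ME2.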

How the results depend on the processing

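The counts of genes called higher or lower in fat were the same under all alternatives. An alternative per gene length was not run, since no transcript lengths were at hand. Depth limits THRSP and MLXIPL in pituitary gland, and 5 animals per sex limit the sex comparisons.

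Without the livers of bull 3 and cow 4, an alternative chosen after seeing the data, 7 genes were called lower in liver than in muscle, 3 higher in liver than in pituitary gland, 2 lower in pituitary gland than in each other tissue, 2 higher in bulls in liver, and 0 relations with FASN passed in liver. Log2 fold changes that turned were ACACA (-0.18) and ACSS2 (-0.076) in liver against pituitary gland, ACACA (0.046) and FASN (0.73) for sex in liver and SCD for sex over all tissues (0.37), as did r of ELOVL6 with FASN in liver (-0.31). Without the liver of bull 3, SCD (-1.49) and ACSS2 (-1.16) for sex in liver, ACSS2 over all tissues (-0.27) and r of MLXIPL with FASN in liver (0.070) turned. Without the fat of bull 5, ACSS2 over all tissues turned (-0.0041) and 0 relations with adipocyte markers passed in fat, where ACACA with FASN missed the threshold (r = 0.772, adjusted permutation p = 0.0523) and ACSS2 with FASN passed it (r = 0.773, 0.047).

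Library sizes alone moved the median log2 fold change of all genes by -0.86 to 0.73 over the contrasts. All genes called higher and lower were then 5518 and 1712 for fat against liver (3443 and 2792 with TMM), 5667 and 1307 for fat against muscle (3135 and 2515), 1736 and 6047 for liver against pituitary gland (2775 and 3569), and 1503 and 5888 for muscle against pituitary gland (2973 and 3314). There, 2 of the 10 genes were lower in muscle than in pituitary gland, 1 was lower in muscle than in each other tissue, and 4 relations with FASN passed in muscle and 1 in pituitary gland. SREBF1 in muscle and ACSS2 in liver were no longer called higher than in pituitary gland. ME1 with adipocyte markers in muscle missed the threshold (r = 0.649, adjusted permutation p = 0.0948). SREBF1 in fat against muscle (0.55), ACACA in liver against pituitary gland (-0.58), ACACA (-0.14), FASN (-0.57) and ME1 (-0.53) in muscle against pituitary gland, ACLY for sex in pituitary gland (-0.069) and ACSS2 over all tissues (-0.075) turned, as did r of ACLY (0.47) and ACSS2 (0.20) with FASN in pituitary gland and of ELOVL6 (-0.13) and ACSS2 (-0.11) with adipocyte markers in fat.

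With the replicate block for animal, sex over all tissues turned for SCD (0.52), ACLY (0.017) and THRSP (0.30), and 8 genes of all were called (4 higher, 4 lower) in place of 222. Beside the changes given with the results, the block changed no other call of the 10 genes between tissues.

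Of all genes, sex calls (higher and lower in bulls) were 2 and 1 in fat by the quasi-likelihood test (6 and 9 by the likelihood ratio test, 14 and 16 by DESeq2), 1 and 0 in liver (9 and 14), 5 and 2 in muscle (18 and 50), 9 and 3 in pituitary gland (73 and 25) and 21 and 56 over all tissues (44 and 178), with 0 for the interaction (44). Without the livers of bull 3 and cow 4, they were 78 and 76 in liver.

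Leaving out 1 animal at a time gave 0 to 1 genes called for sex in liver and 0 to 1 for the interaction, SCD without cow 4 in both. Without bull 2, ACLY in liver against pituitary gland was below 2-fold (-0.98). Without cow 5, THRSP in liver against muscle was -0.79 (adjusted p = 0.132, edgeR). Log2 fold changes that crossed 0 ranged from -0.59 to 0.029 for ELOVL6 in muscle against pituitary gland. For sex in fat, they ranged from -0.66 to 0.27 for FASN, -0.23 to 0.21 for SCD, -0.98 to 1.23 for ACLY, -0.78 to 0.27 for SREBF1 and -0.084 to 0.81 for ME1. In liver, they ranged from -0.52 to 0.54 for ACACA, -0.46 to 1.13 for FASN, -1.49 to 4.11 for SCD, -0.29 to 0.038 for ACLY and -1.16 to 2.0 for ACSS2. In muscle, they ranged from -0.31 to 0.18 for SREBF1, -0.35 to 0.49 for ACSS2, -1.22 to 0.13 for THRSP and -0.33 to 0.58 for MLXIPL, and in pituitary gland from -0.20 to 0.15 for ELOVL6 and -0.42 to 0.62 for MLXIPL. Over all tissues, they ranged from -0.59 to 0.16 for FASN, -0.40 to 0.79 for SCD, -0.37 to 0.21 for ACLY, -0.27 to 0.58 for ACSS2 and -0.25 to 0.12 for THRSP. The cause of these changes was not tested.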
